A study of Mus musculus with 36 samples.

Results

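Regions of the mouse genome at which ChIP–seq found the K198R form of Pax5, and neither the Wt nor the K198Q form, were described here. Each form had 2 lists of peaks, 1 per replicate. A peak was kept when it overlapped a peak of the other replicate of the same form by at least 1 bp, and kept peaks were merged within a form and then across forms into 10760 regions. The regions were chosen by the peak calls: a region was counted as K198R only when it held kept peaks of K198R and no kept peak of Wt or K198Q. There were 2975 such regions, 27.65% of all. Of the other regions, 3807 held Wt and K198R, 2281 held all 3 forms and 1596 held Wt only. The rest held K198Q and K198R (53), Wt and K198Q (36) or K198Q alone (12).

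The ChIP–seq libraries came from Pax5-/- pro-B cells that carried a retroviral vector with Pax5 Wt, Pax5 K198Q or Pax5 K198R, 2 replicates each, with an antibody to Pax5. The study replaced the lysine K198 of Pax5, a site of acetylation, by glutamine (Q), which stands in for acetylated lysine, or by arginine (R), which stands in for lysine without the acetyl group. RNA-seq libraries were made from Pax5-/- cells with empty vector (EV), Wt, K198Q or K198R, and, in a separate table, from wild-type cells with EV and Sirt7-/- cells with EV, Pax5Wt or Pax5K198R, again 2 replicates each. Cells grew with cytokines on OP9 stromal cells, a feeder line, and transduced cells were sorted by the vector's marker. Pax5-/- cells with EV still gave Pax5 reads, and Sirt7-/- cells kept their own Pax5 gene. In the study's methods the Pax5-/- progenitors came from fetal liver of C57BL/6 mice, where the labels say bone marrow, and the Sirt7-/- mice of most experiments were 129Sv. By the study's methods the replicates were made on separate days, and p-values measure the spread between these libraries. Normalized counts, the unit of all RNA values here, are scaled by the authors so that libraries of a table can be compared. The peak names inside the list of K198R replicate 2 carry another replicate number, and it was used as labelled.

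Pax5 is the transcription factor that commits lymphoid progenitors to the B lineage. Through its paired domain it binds DNA at promoters and enhancers, switches on genes of B cell receptor signalling and switches off genes of other lineages. It acts beside other early B cell factors such as EBF1, the E proteins, ETS family members including PU.1, RUNX1 and FOXO1, each with its own DNA motif.

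Markers fixed for the labelled cells were present. The 8 B progenitor markers, led by Igll1, a surrogate light chain gene, summed to 28014 and 34090 normalized counts with EV, to 63561 and 69086 with Wt and to 76731 and 80268 with K198R. Cells with EV thus held least of them and cells with K198R most, with no overlap between groups. Stromal markers such as Cxcl12 and Pdgfrb were above 0 for all 6 genes of the list in each library and summed to between 1082 and 2624 normalized counts in the Pax5-/- cells. In the table with the Sirt7-/- cells their sums ran from 3146 to 11312, with 5610 and 11312 for Pax5Wt and 4223 and 8627 for Pax5K198R, so that both groups spread widely between replicates. Of the 3 erythroid markers, 1 or 2 were at 0 in each Pax5-/- library and their sum was at most 9.61. Myeloid markers, led by Itgam, summed to between 408 and 1011 in these libraries, and T cell markers, nearly all of them Lck, to between 1965 and 3155. NK cell markers, nearly all of them Nkg7, summed to 494 and 591 with EV, 213 and 225.5 with Wt, 284 and 317 with K198Q and 131 and 86.7 with K198R, lowest with K198R and without overlap. In bulk samples fewer cells of a type and less RNA per cell cannot be told apart, and the part of any of these cells in the results was not tested.

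The amount of Pax5 transcript differed between the forms. Pax5 had 2201 and 2103 normalized counts with EV, 6458 and 6152 with Wt, 8918 and 8963 with K198Q and 21162 and 16609 with K198R. Its mean with K198R was 2.995 times that with Wt and 2.11 times that with K198Q, with no overlap between libraries. In Sirt7-/- cells the 2 forms had nearly the same level, 43024 and 43260 with Wt and 38690 and 45426 with K198R, a ratio of 0.975. In the Pax5-/- cells the form and the amount of Pax5 transcript therefore cannot be told apart in any comparison of binding or expression.

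Sequence windows of 300 bases centred on the peak summit are shown for 8 K198R-only regions on mm10, plus strand, with capitals at matches of the Pax5 core GCGTGAC or GCATGAC, of the EBF1 motif CCCNNGGGA, of the ETS motif AGGAAGT, of the E-box CAGCTG and of the SP/KLF motif GGGCGGGG on either strand. The first pair, near Klf4 and at Egfl6, led the regions by the lower of the 2 K198R enrichments and held none of the Pax5 core letters. The Klf4 window lay in chr4:55469832-55470131 and 67.7% of it was marked as repeat in the genome. The Egfl6 window lay in chrX:166585549-166585848.
Klf4: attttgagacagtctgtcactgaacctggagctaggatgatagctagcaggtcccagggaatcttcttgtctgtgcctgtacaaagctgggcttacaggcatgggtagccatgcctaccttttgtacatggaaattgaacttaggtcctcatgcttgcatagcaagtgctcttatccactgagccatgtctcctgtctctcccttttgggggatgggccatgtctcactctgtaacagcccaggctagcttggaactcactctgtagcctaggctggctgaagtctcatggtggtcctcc
Egfl6: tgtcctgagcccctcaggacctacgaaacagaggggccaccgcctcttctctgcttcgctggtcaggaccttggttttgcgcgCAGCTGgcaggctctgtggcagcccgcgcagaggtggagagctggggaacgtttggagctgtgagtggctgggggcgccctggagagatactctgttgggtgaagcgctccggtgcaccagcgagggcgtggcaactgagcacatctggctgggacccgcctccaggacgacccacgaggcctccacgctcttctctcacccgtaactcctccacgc

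The next pair were the strongest K198R-only windows that held the Pax5 core, chosen after the matches were seen. The window in an intron of Sdhaf2, a gene of a mitochondrial assembly factor, lay in chr19:10522022-10522321 with GCATGAC centred 10 bp from the summit. The window at the promoter of Lemd3, an inner nuclear membrane protein, lay in chr10:120979323-120979622 with GCGTGAC centred 33 bp from the summit. Enrichment was 11.5 and 9.515 in the 2 K198R replicates at Sdhaf2 and 9.235 and 9.61 at Lemd3. Wt replicate 2 had a peak in both, of 6.90 at Sdhaf2 and of 11.0 at Lemd3, above the K198R values there, and K198Q replicate 1 had one of 7.99 at Lemd3.
Sdhaf2: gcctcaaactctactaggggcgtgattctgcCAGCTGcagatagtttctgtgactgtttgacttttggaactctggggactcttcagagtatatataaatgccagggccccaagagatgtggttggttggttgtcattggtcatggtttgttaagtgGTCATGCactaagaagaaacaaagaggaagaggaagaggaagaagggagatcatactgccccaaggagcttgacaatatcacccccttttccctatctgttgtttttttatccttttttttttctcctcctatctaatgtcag
Lemd3: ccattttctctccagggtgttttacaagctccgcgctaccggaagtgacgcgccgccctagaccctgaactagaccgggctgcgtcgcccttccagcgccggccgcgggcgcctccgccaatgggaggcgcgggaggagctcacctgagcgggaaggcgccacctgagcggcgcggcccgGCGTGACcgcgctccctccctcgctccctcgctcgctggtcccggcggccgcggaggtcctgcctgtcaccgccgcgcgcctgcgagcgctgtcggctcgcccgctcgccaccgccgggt

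Itga6, an integrin chain, and Cxcr4, the receptor for the stromal chemokine CXCL12, are genes that the study names for K198R. The window upstream of Itga6 lay in chr2:71744816-71745115 and the window in the intron of Cxcr4 in chr1:128590822-128591121. Both held ETS letters, centred 69 and 22 bp from the summit, and neither held the Pax5 core.
Itga6: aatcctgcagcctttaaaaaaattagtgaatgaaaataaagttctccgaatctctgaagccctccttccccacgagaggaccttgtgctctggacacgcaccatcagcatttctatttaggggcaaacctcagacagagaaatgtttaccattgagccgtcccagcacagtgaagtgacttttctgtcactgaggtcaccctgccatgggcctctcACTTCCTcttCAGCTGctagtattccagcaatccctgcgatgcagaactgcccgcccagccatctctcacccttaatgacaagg
Cxcr4: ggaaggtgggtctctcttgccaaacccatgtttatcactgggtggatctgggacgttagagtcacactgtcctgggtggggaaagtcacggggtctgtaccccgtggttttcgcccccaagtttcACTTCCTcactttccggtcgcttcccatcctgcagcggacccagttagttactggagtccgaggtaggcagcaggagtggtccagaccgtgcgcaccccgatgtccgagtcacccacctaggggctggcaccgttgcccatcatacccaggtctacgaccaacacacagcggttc

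Fam189a1 and C4bp were nearest genes of K198R-only regions and had more transcript with K198R than with Wt. The window in an intron of Fam189a1 lay in chr7:65142016-65142315 with the Pax5 core GCATGAC centred 33 bp from the summit, and the window in C4bp in chr1:130660235-130660534 held none of the letters.
Fam189a1: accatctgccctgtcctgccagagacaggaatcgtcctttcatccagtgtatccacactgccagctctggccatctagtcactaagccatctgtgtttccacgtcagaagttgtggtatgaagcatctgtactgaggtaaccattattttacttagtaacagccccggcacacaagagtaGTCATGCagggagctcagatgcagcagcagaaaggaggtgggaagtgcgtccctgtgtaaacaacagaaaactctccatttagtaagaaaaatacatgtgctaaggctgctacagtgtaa
C4bp: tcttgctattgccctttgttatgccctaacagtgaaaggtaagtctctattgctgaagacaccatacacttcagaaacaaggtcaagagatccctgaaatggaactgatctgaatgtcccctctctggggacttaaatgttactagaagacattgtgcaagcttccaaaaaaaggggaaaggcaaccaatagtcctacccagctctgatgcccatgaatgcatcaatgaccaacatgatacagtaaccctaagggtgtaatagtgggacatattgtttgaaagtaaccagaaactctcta

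The K198R-only regions were weakly enriched. Enrichment over input, a ratio that the authors' peak caller gives at the summit, had a median of 5.285 in K198R replicate 1 and 5.44 in replicate 2, and 8 in 10 regions lay between 3.71 and 7.64 and between 3.79 and 8.08. Regions of Wt only had nearly the same medians in the Wt replicates, 5.19 and 5.31. Regions with both Wt and K198R had K198R medians of 6.135 and 6.71, and regions of all 3 forms 9.43 and 11.3. When the 9116 regions with K198R were put in 5 groups by the lower of the 2 K198R values, the K198R-only share fell from 52.4% in the weakest group to 3.401% in the strongest, where 72.3% of the regions held all 3 forms. Since the peak calls chose the regions, these values carry no test.

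**Figure D1:**
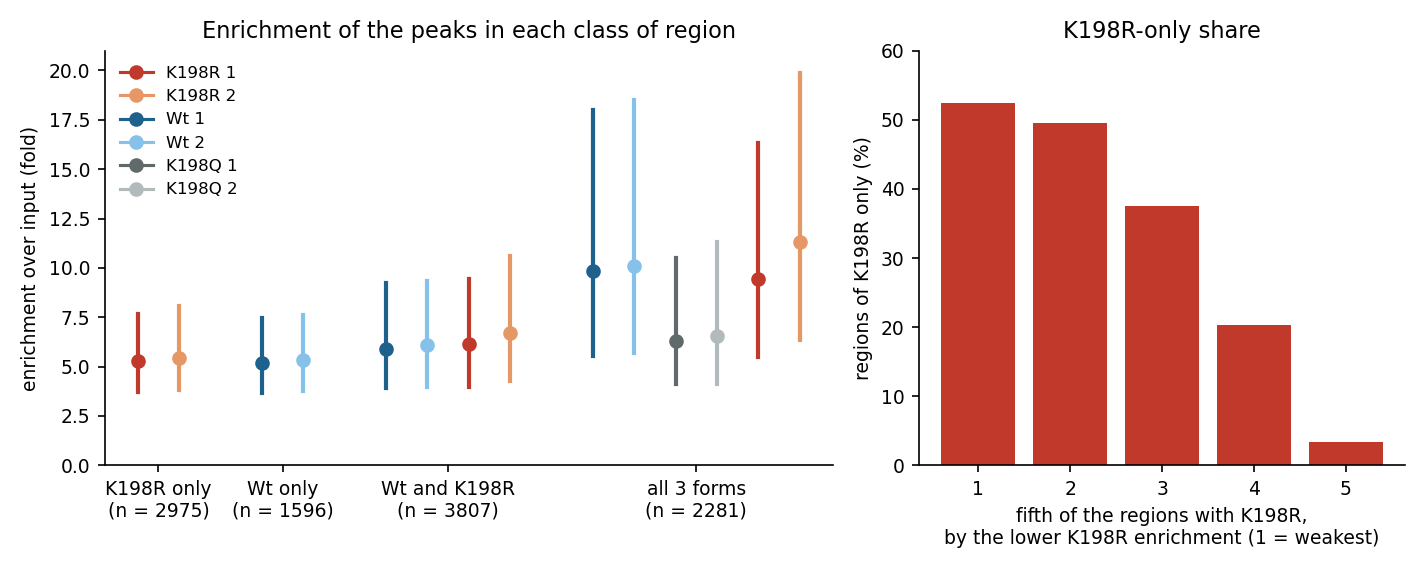
Left, median (point) and 10th to 90th percentile (line) of the enrichment over input of kept peaks, by class of region and replicate; the K198R-only medians, 5.285 and 5.44, sit beside those of Wt-only regions and below those of regions shared between forms. Right, share of K198R-only regions among the regions with K198R, in 5 groups of equal size by the lower of the 2 K198R enrichments, from 52.4% to 3.401%.

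The rule asked for overlapping peaks in both K198R replicates, so that near summits follow in part from it. The replicates ranked the regions differently. The summits of the 2 replicates lay a median of 43 bp apart, and 56.2% lay within 50 bp. Across the 2975 regions the Spearman correlation of the replicates' enrichment was 0.22, a description over regions of the same libraries, against 0.52 over the 2281 regions of all 3 forms. Regions of Wt only were alike in this, with a Spearman correlation of 0.22, 55.1% of the summits within 50 bp and a median length of 343 bp. In 161 regions, 5.41%, the 2 values differed by more than 2-fold. The median length was 350 bp, shorter than the 625 bp of regions of all 3 forms. The peak pair with the least overlap shared 8 bp, the median pair 231 bp.

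At the threshold, the peak inside with the lowest −log10 q belonged to the region at chr10:76354888-76355284, with enrichments of 2.67 and 3.78 and a −log10 q of 1.33 in replicate 1. The lowest enrichments inside were 2.36 in replicate 1 and 2.24 in replicate 2. Among peaks that stayed outside because the other K198R replicate had none, the strongest reached 12.6 in replicate 1 and 11.9 in replicate 2. The next in strength were a peak of replicate 1 at chr15:81360739-81361202 with 9.55 and a peak of replicate 2 at chr4:41464988-41465355 with 10.5. Outside all regions, 2398 peaks of K198R replicate 1 and 3819 of replicate 2 had no partner, with median enrichments of 4.77 and 4.96.

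Most of the K198R-only regions did hold a peak of another form in a single replicate. A peak of Wt replicate 1 lay in 713 of them (24.0%) and one of Wt replicate 2 in 1120 (37.65%), and 1815 (61.0%) held either. Single-replicate peaks of K198Q were rarer, 208 (6.99%) and 189 (6.35%). In all 1898 regions (63.8%) held some peak of Wt or K198Q, and 1077 (36.2%) held none. In 18 regions both Wt replicates had a peak, but the peaks did not overlap each other. Where Wt replicate 2 had a peak, K198R replicate 2 was the higher in 680 of 1120 regions and the median ratio of K198R to Wt enrichment was 1.10. The same ratio in replicate 1 was 1.05, with K198R higher in 401 of 713. Regions of Wt only were alike in this: 71.55% of them held a single-replicate peak of another form, and K198R replicate 2 had one in 47.1%.

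**Figure D2:**
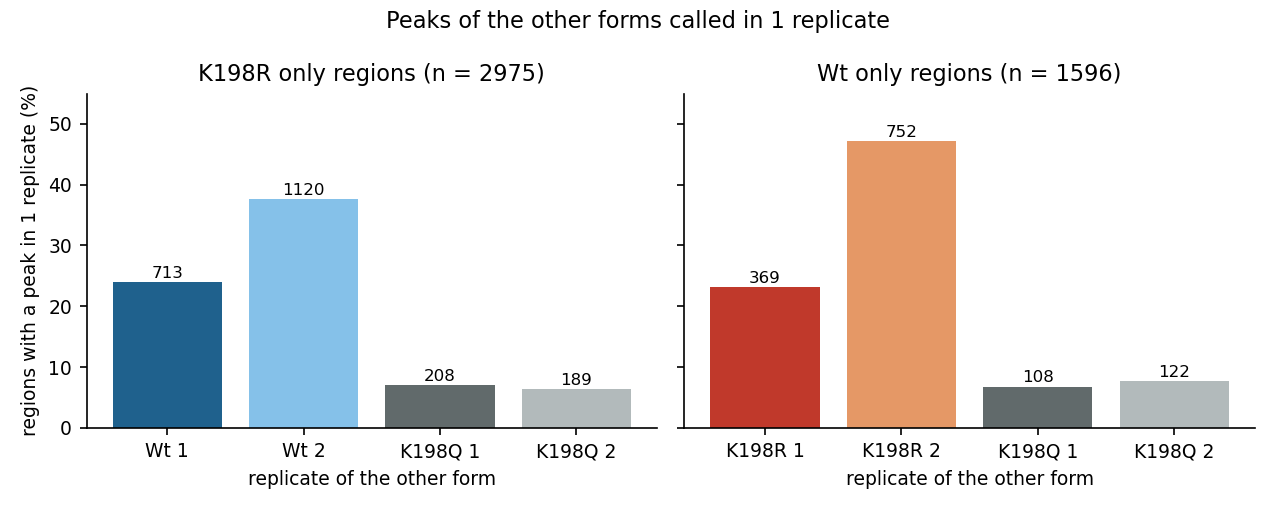
Share of K198R-only regions (left) and Wt-only regions (right) with a peak of another form in 1 replicate, by replicate, with the number of regions above each bar. Wt replicate 2 had a peak in 1120 K198R-only regions and K198R replicate 2 in 752 Wt-only regions.

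The 1077 regions without any peak of Wt or K198Q were the strictest set. Their median lower K198R enrichment was 4.56, against 4.77 for those with a single-replicate peak, and 38.35% of them lay within 1 kb of a start site. The word only rests on the rule that a form needs both replicates. The number of K198R-only regions was 1863 when Wt replicate 1 was left out and any peak of Wt replicate 2 counted, 2271 when Wt replicate 2 was left out, 6851 when K198R replicate 1 was left out and 5455 when K198R replicate 2 was left out.

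The strongest K198R-only region, with enrichments of 15.55 and 13.7, lay 62484 bp downstream of the start of Klf4, a zinc finger transcription factor of progenitor and stem cells, at chr4:55469825-55470151. It also held a peak of Wt replicate 1 at 4.08 and one of K198Q replicate 2 at 7.86. The Egfl6 region, chrX:166585475-166585938, lay on the start site of a gene of a secreted EGF-repeat protein and had 12.4 and 13.6, with a peak of Wt replicate 2 at 5.68. In introns lay the regions of St8sia6, a sialyltransferase (10.6 and 10.5), of Stk3, a kinase of the Hippo pathway (13.35 and 10.3), and of Fam53b (10.2 and 12.7). The Stk3 region, chr15:35074901-35075290, lay 80688 bp behind the start and was the single one of the 10 strongest with no peak of Wt or K198Q in any replicate. Intergenic regions lay near Ppp1r13b, which encodes a p53-binding protein (11.2 and 10.25), and near Cat, the gene of catalase (10.1 and 11.7). Others lay 77030 bp before the start of Mrps9, a mitochondrial ribosomal protein (10.1 and 14.9), and 144595 bp before the start of Gk2, a glycerol kinase (11.9 and 9.99). The regions of Klf4, Stk3, Mrps9 and Gk2 lay beyond the 50 kb within which genes were assigned for the RNA comparisons below. The tenth lay 214 bp before the start of the ribosomal protein gene Rpl7 (10.3 and 9.985).

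Klf4 had 897.5 and 1140 normalized counts with Wt and 599 and 973 with K198R, so that the libraries overlapped (log2 fold change -0.41, SE 0.24, limma adjusted p = 0.614). Egfl6 was at or under 0.989 in all 8 Pax5-/- libraries and had 203 and 257 with Wt and 287 and 500 with K198R in Sirt7-/- cells (log2 fold change 0.73, SE 0.40, limma adjusted p = 0.729). Gk2 was listed at 0 in all of the Pax5-/- libraries and St8sia6 did not exceed 4.99 in any. Rpl7 had 39215 and 43044 normalized counts with Wt and 39125 and 44650 with K198R. In Sirt7-/- cells the K198R libraries lay below the Wt libraries for Stk3, Cat, Fam53b, Ppp1r13b and Mrps9, and none of the 5 genes passed the adjusted test. Of all 13651 genes tested in these cells, 17.9% had K198R libraries wholly below the Wt libraries. In Pax5-/- cells, from which the regions came, the same genes did not share that direction. Fam53b had 3866 and 3657 with Wt and 4078 and 4405 with K198R and Mrps9 had 1998 and 1899 and then 2085 and 2222, both higher without overlap, while the libraries of Stk3, Cat and Ppp1r13b overlapped. Of all 13345 genes tested in Pax5-/- cells, 18.8% had K198R libraries wholly above the Wt libraries. In Sirt7-/- cells Stk3 had 549 and 463 with Wt and 348 and 322 with K198R (log2 fold change -0.59, SE 0.15, limma adjusted p = 0.194). Cat had 8289 and 6243 with Wt and 5242 and 4508 with K198R (log2 fold change -0.57, SE 0.16, limma adjusted p = 0.238). Fam53b had 5951 and 6279 with Wt and 3887 and 4641 with K198R (log2 fold change -0.53, SE 0.17, limma adjusted p = 0.348). Ppp1r13b had 677 and 558 with Wt and 427 and 445 with K198R (log2 fold change -0.49, SE 0.24, limma adjusted p = 0.660), and Mrps9 had 1827 and 1909 with Wt and 1807 and 1802 with K198R.

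A set of 10 genes from the study's text were nearest to 12 K198R-only regions. Foxo1, also named there, had a K198R-only region at its start site and is given with the gene lists. At Csf1, the gene of a macrophage growth factor, the transcript had 284.5 and 361 normalized counts with Wt, 351.5 and 289 with K198Q and 950 and 644 with K198R. K198R was above the other forms without overlap, a log2 fold change of 1.285 ± 0.24 (SE) at a limma adjusted p = 0.0366 against Wt, under the fold threshold of 1.5. The region at the start site of Actr6, a subunit of chromatin remodelling complexes, had 10.9 in replicate 1 and 3.15 in replicate 2, the widest gap among the 12, and a peak of Wt replicate 1 at 4.81. The Itga6 region 41974 bp before the start had 12.8 and 6.61, and Wt replicate 2 had a peak of 12.8 in it. A second Itga6 region, 324 bp behind the start, had 6.10 and 5.53. Cxcr4 had 7.96 and 6.13 in its intron, with 3 regions of other classes nearest to the same gene.

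Both regions of Ikzf1, which encodes Ikaros, a lymphoid zinc finger factor, were weak: the promoter region chr11:11686018-11686295 had 4.70 and 4.86 and the intron region 3.36 and 4.735. The regions of Cdk4, the G1 kinase (4.69 and 4.01), of Cox20, an assembly factor of cytochrome oxidase (4.30 and 5.12), and of Rb1, the retinoblastoma cell cycle gene (3.62 and 5.59), held no peak of another form. At the promoter of Lif, a cytokine gene, the region had 6.135 and 4.755. None of the 12 windows held the Pax5 core GCGTGAC or GCATGAC, and 7 of the 12 lay within 1 kb of the start site.

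K198R-only regions lay mostly at promoters or within genes. Within 1 kb of a start site lay 1337 of them (44.9%), of which 996 within 200 bp, 26.8% lay in introns and 25.3% between genes. The promoter share was 36.0% for regions of Wt only, 50.95% for Wt and K198R and 49.9% for all 3 forms. Promoter regions were somewhat weaker than the rest, with a median lower K198R enrichment of 4.48 against 4.855. The nearest region of Wt or K198Q was a median of 34377 bp away, 246 regions (8.27%) had one within 1 kb, and 1209 (40.6%) had none within 50 kb. Another K198R-only region lay within 10 kb of 393 (13.2%). Ago2, BC034090, Ptprj, a receptor phosphatase, and Sorcs2 were nearest to 5 K198R-only regions each. The X chromosome held 32 regions, 52.5 for each 100 regions with Wt there, against 33.8 to 41.9 on the autosomes.

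The DNA under the summits was rich in GC and poor in repeats. The median GC content of the 300-base windows was 56.7%, with 67.0% at promoters and 51.0% elsewhere, against 45.7% in windows of the same length 2000 bases to either side. Repeats covered a mean of 8.06% of the windows and 26.1% of those to the side. The other classes shared this, with a median GC content of 55% for Wt only, 59.7% for Wt and K198R and 59.7% for all 3 forms and mean repeats of 8.55%, 7.30% and 7.275%. At promoters 88.6% of the windows had a CpG content above 0.6 of that expected from their C and G, elsewhere 9.59%.

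The Pax5 core, GCGTGAC or GCATGAC on either strand, was in 8.34% of the K198R-only windows. This was above the 2.34% of windows to the side and below the shares in regions of Wt only (10.7%), of Wt and K198R (11.1%) and of all 3 forms (15.8%). All RefSeq promoter sequences of 300 bases held it in 4.23%. GCGTGAC alone was in 4.13% of K198R-only windows and in 10.3% of those of all 3 forms, whereas GCATGAC was in 4.20% and 5.79%. The matches lay near the summit, 153 of 256 (59.8%) within 50 bp. The share without any peak of another form was 7.61%. With the looser letters GCGNNAC, added after the data were seen, 35.9% of the K198R-only windows had a match, against 8.25% to the side and 25.6% of all promoter sequences. These shares describe letters in a window, and no test was made on them.

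Letters of other factors that act in B cell progenitors were counted in the same way. In windows over 1 kb from a start site, the EBF1 letters CCCNNGGGA were in 15.6%, against 14.5% for Wt only, 15.7% for all 3 forms and 4.21% to the side. The E-box CAGCTG was in 32.6%, against 26.9%, 35.1% and 14.7%, and the ETS letters AGGAAGT in 18.9%, against 17.8%, 19.7% and 7.42%. The RUNX letters TGTGGTT were in 13.7%, fewer than in the 16.3% for Wt only and the 15.4% for all 3 forms, with 7.08% to the side. The forkhead letters TGTTTAC, the motif of the FOXO factors, were in 5.56% of distal K198R-only windows, against 2.84% for Wt only, 3.85% for all 3 forms and 4.21% to the side. Over all K198R-only windows they were in 4.03%, and in 2.60% of those without any peak of another form. At promoters the SP/KLF letters GGGCGGGG were in 36.8% and the ETS letters CCGGAAGT in 9.65%. Of all RefSeq promoter sequences, CCCNNGGGA was in 6.56%, CAGCTG in 16.3%, AGGAAGT in 9.35%, TGTGGTT in 5.27%, TGTTTAC in 3.65%, GGGCGGGG in 17.6% and CCGGAAGT in 3.89%.

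**Figure D3:**
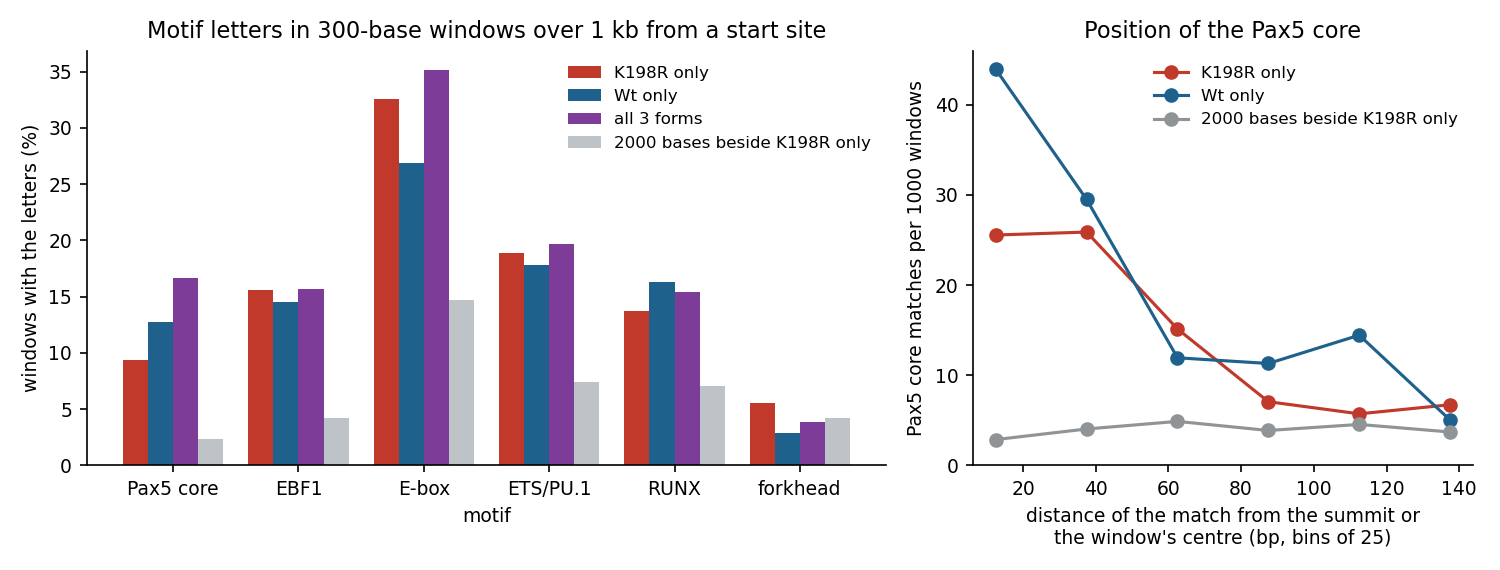
Left, share of 300-base windows over 1 kb from a start site that hold each motif's letters on either strand, by class of region, with windows 2000 bases to either side of K198R-only regions in grey; the K198R-only Pax5 core bar, 9.34%, is lower than that of Wt-only regions, 12.75%, and above the grey one, 2.32%. Right, matches of the Pax5 core per 1000 windows by distance from the summit (all windows of each class), highest in the bins under 50 bp for both classes.

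The genes next to these regions were then compared in the RNA-seq libraries, which had no part in choosing the regions. A gene was assigned when its start site was the nearest protein-coding one and within 50 kb of the summit, which gave 2191 genes, 10.0% of 21851, for 2487 regions. Of these, 1390 genes were nearest to K198R-only regions and to no other region. In Pax5-/- cells 1981 of the 2191 passed the filter on low values, at least 10 normalized counts in at least 2 libraries, and only these were tested. Genes were called in limma at an adjusted p under 0.05 with a log2 fold change of 1.5 or more in either direction. With 2 libraries against 2, the smallest p of an exact permutation test on 1 gene is 0.33. The comparisons with Wt, K198Q and EV share the K198R libraries.

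Between K198R and Wt, 13 genes nearest to a K198R-only region were higher with K198R and 14 lower, 0.656% and 0.707% of those tested. Over all 13345 genes tested 0.285% were higher and 1.31% lower. The genes nearest to K198R-only regions and no other were higher in 0.331% and lower in 0.993%. The other classes had like shares: 0.679% and 1.75% of genes nearest to Wt-only regions were higher and lower. For regions of Wt and K198R these were 0.433% and 0.629%, and for regions of all 3 forms 0.678% and 0.925%. The median log2 fold change was 0.03 for the nearest genes and 0.01 for all genes. The calls rested on few libraries: without Wt replicate 2 there were 2 higher and 0 lower, without Wt replicate 1 there were 3 and 5, without K198R replicate 1 there were 8 and 29, and without K198R replicate 2 there were 9 and 8.

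**Figure D4:**
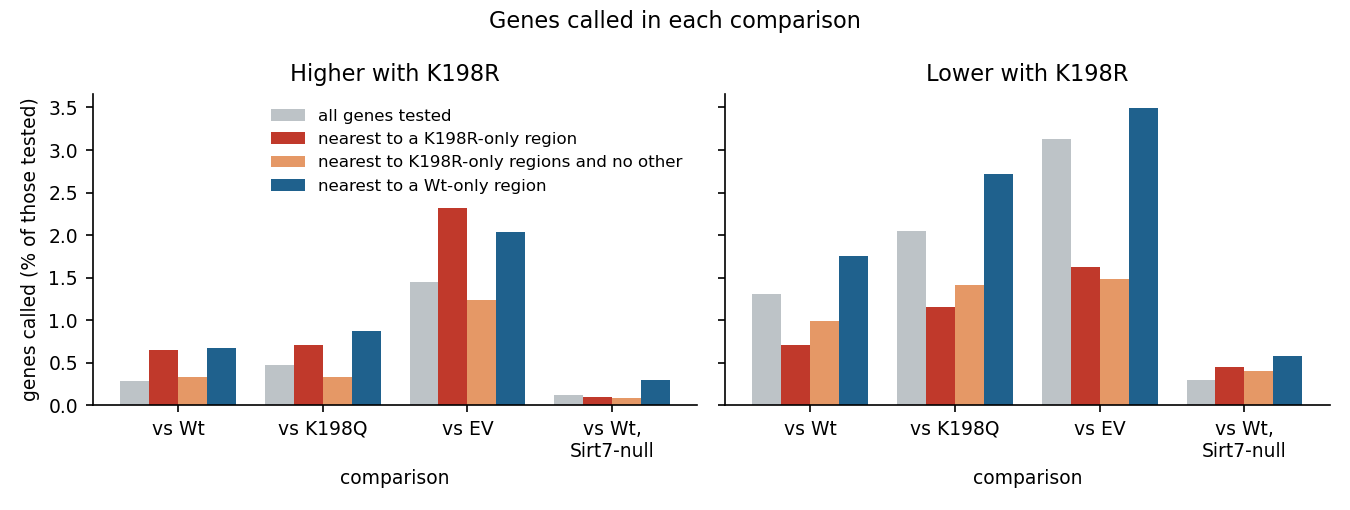
Share of tested genes called higher (left) or lower (right) with K198R in each comparison, for all genes and for genes nearest to K198R-only or Wt-only regions. Against Wt, 0.656% of the genes nearest to K198R-only regions were higher and 0.707% lower, against 0.285% and 1.31% of all genes.

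Bcar3, an adaptor of integrin signalling and a gene that Pax5 activates, had 104 and 72.5 normalized counts with Wt and 730 and 414.5 with K198R, a log2 fold change of 2.65 ± 0.37 (SE) at a limma adjusted p = 0.01295. It was lowest with EV, 18.3 and 20.65, and its K198R libraries stood above all others. Bank1, a scaffold protein of B cell receptor signalling with a K198R-only region on its start site, had 75.8 and 70.5 with Wt and 408.5 and 347 with K198R (log2 fold change 2.35, SE 0.42, limma adjusted p = 0.0300). Bcar3 and Bank1 each were also nearest to 2 regions of other classes.

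Mt1, a metallothionein that binds zinc and copper, had 45.3 and 62.3 normalized counts with Wt, 160 and 131.5 with K198Q and 333 and 438.5 with K198R, a log2 fold change of 2.82 ± 0.26 (SE) against Wt at a limma adjusted p = 0.00370. Its region lay 4124 bp behind the start, chr8:94183219-94183650, with 4.74 and 9.34. Fam189a1, listed as Entrep2 in the RNA tables, had 199 and 196.5 with Wt, 204 and 216 with K198Q, 181 and 236 with EV and 771.5 and 883 with K198R. The K198R libraries stood above those of the other groups, by a log2 fold change of 2.06 ± 0.18 (SE) against Wt at a limma adjusted p = 0.00370. It had 2 K198R-only regions and no region of another class. C4bp, a complement inhibitor, had 25.3 and 32.0 with Wt and 168 and 230 with K198R (log2 fold change 2.75, SE 0.40, limma adjusted p = 0.0154), and its region, 6.895 and 8.07, held no peak of another form. Bfsp2 and the stress response factor Atf3 rose by log2 fold changes of 2.08 and 1.95, and each also had 4 regions of other classes.

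Phyh, a peroxisomal enzyme of branched fatty acid breakdown, had 112 and 229 normalized counts with Wt, 63.8 and 64.3 with K198Q and 14.3 and 7.76 with K198R, near its level with EV, 8.65 and 7.60. It had a log2 fold change of -3.80 ± 0.45 (SE) at a limma adjusted p = 0.00890 and 2 K198R-only regions, one on its start site with 5.039 and 5.035. Prodh, the first enzyme of proline breakdown, had 160 and 197 with Wt and 28.8 and 11.6 with K198R (log2 fold change -3.20, SE 0.43, limma adjusted p = 0.0123). Pogk, a KRAB domain gene with a region 7 bp from its start, had 550 and 670 with Wt, 624 and 559 with K198Q and 111 and 40.9 with K198R (log2 fold change -3.15, SE 0.40, limma adjusted p = 0.0103). Cul7, a scaffold of ubiquitin ligases, had 1342 and 1559 with Wt and 353 and 191 with K198R (log2 fold change -2.47, SE 0.26, limma adjusted p = 0.00601). In EV cells it had 1376 and 1240, so that the K198R libraries were the low ones. Zfp518b, Btbd6 and Nhsl1 fell by between 2.46 and 2.75 on the log2 scale, and Neu4 had few counts, 16.1 and 15.8 with Wt and 0 and 1.02 with K198R. Cd244a, a receptor of the SLAM family, had 478 and 657 with Wt and 159 and 105 with K198R (log2 fold change -2.105, SE 0.23, limma adjusted p = 0.00734). Spns2, a transporter of sphingosine 1-phosphate, had 834 and 842.5 with Wt and 273 and 132 with K198R (log2 fold change -2.14, SE 0.29, limma adjusted p = 0.0127).

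**Figure D5:**
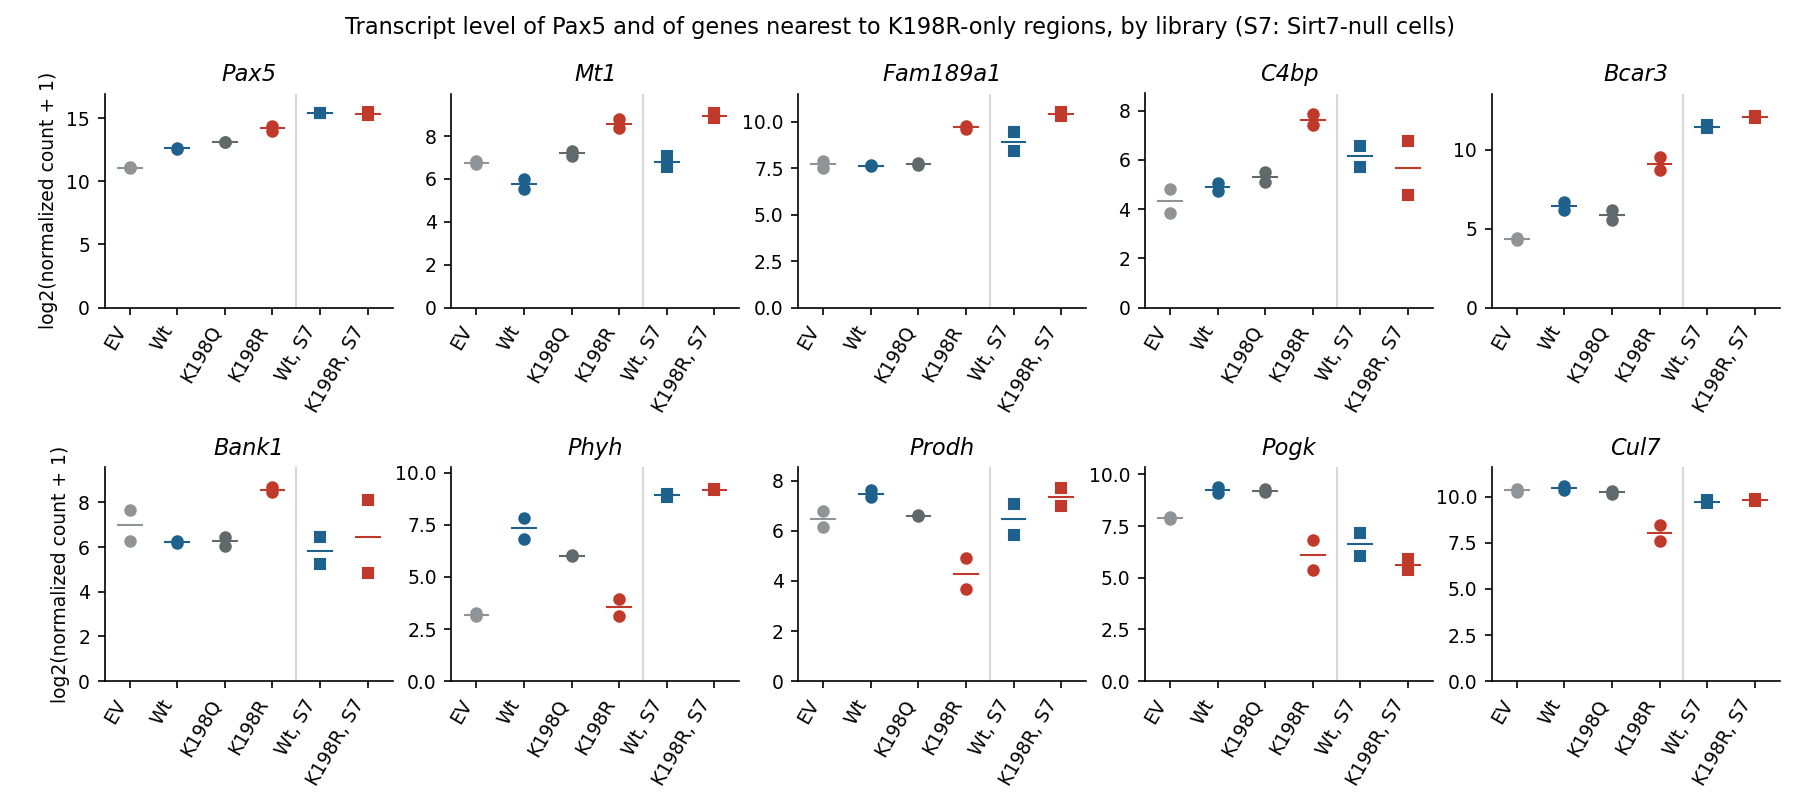
Level of Pax5 and of 9 genes nearest to K198R-only regions as log2(normalized count + 1), a point per library and a line at the mean of 2 libraries, in Pax5-/- cells (circles) and in Sirt7-/- cells (squares, S7, a separately normalized table). Mt1 was higher with K198R than with Wt in both kinds of cell.

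Against K198Q, 14 nearest genes were higher with K198R and 23 lower, 0.707% and 1.16%, where 0.472% and 2.05% of all genes were. The shares were 0.873% and 2.72% next to Wt-only regions, 0.826% and 0.983% next to regions of Wt and K198R and 1.05% and 1.17% next to regions of all 3 forms. Atp1b1, a subunit of the sodium pump, had 1319 and 823 normalized counts with K198Q, 2055 and 1960 with Wt and 5436 and 6250 with K198R (log2 fold change 2.48, SE 0.22, limma adjusted p = 0.00346). Slamf9, a SLAM family receptor, had 57.0 and 51.8 with K198Q and 336 and 272 with K198R (log2 fold change 2.45, SE 0.29, limma adjusted p = 0.00643). Lower were Itga8, an integrin chain, 38.9 and 40.3 with K198Q and 2.79 and 1.13 with K198R, and Spns2, a transporter of sphingosine 1-phosphate, 1019 and 952 with K198Q and 273 and 132 with K198R (log2 fold change -2.37, SE 0.29, limma adjusted p = 0.00717). The counts were 3 and 1 without K198Q replicate 2, 7 and 5 without K198Q replicate 1, 14 and 44 without K198R replicate 1 and 12 and 11 without K198R replicate 2.

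Against EV, 46 nearest genes were higher with K198R and 32 lower, 2.32% and 1.62%, where 1.45% and 3.13% of all genes were. Genes nearest to K198R-only regions and no other were higher in 1.24%. Higher and lower were 2.04% and 3.49% next to Wt-only regions, 2.12% and 1.73% next to regions of Wt and K198R and 3.39% and 1.85% next to regions of all 3 forms. Cplx2, a complexin, had 77.4 and 171 normalized counts with EV, 2964 and 3289 with Wt and 4216 and 7377 with K198R (log2 fold change 5.585, SE 0.37, limma adjusted p = 0.000209). Gab1, an adaptor of PI3 kinase signalling with a region at its promoter, had 20.3 and 12.6 with EV and 445 and 478 with K198R (log2 fold change 4.76, SE 0.26, limma adjusted p = 9.94e-05). Arhgef33 was listed at 0 in both EV libraries and had 168 and 149 with Wt and 159 and 174 with K198R. With these genes the Wt libraries were also above EV. Among the lower genes were Cd244a, a receptor of NK cells, 936 and 834 with EV and 159 and 105 with K198R (log2 fold change -2.76, SE 0.23, limma adjusted p = 0.000638), Fgr, a myeloid SRC family kinase, 183 and 228 with EV and 22.6 and 47.7 with K198R (log2 fold change -2.60, SE 0.36, limma adjusted p = 0.00435), and the purine receptor gene P2ry14, 58.1 and 57.5 with EV and 15.6 and 4.92 with K198R. The lower genes were 16 without EV replicate 1, 20 without EV replicate 2, 49 without K198R replicate 1 and 18 without K198R replicate 2.

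In Sirt7-/- cells, where the forms had like Pax5 transcript, 2004 nearest genes were tested at an adjusted p under 0.05 with no fold threshold, and 2 were higher with K198R than with Wt and 9 lower, 0.0998% and 0.449%. Of all 13651 genes tested there, 0.125% were higher and 0.3% lower. The shares were 0.292% and 0.584% next to Wt-only regions, 0.196% and 0.431% next to regions of Wt and K198R and 0.123% and 0.368% next to regions of all 3 forms. With the replicate number as a block, 21 nearest genes were higher and 39 lower, 1.05% and 1.95%, against 0.916% and 1.38% of all genes in the same fit. Mt1 was called in both kinds of cell: it had 92.4 and 132 normalized counts with Wt and 536.5 and 457.5 with K198R in Sirt7-/- cells, a log2 fold change of 2.155 ± 0.26 (SE) at a limma adjusted p = 0.0251. Trp53i11, a p53-induced gene with 4 K198R-only regions, had 14130 and 13815 with Wt and 21672 and 23204 with K198R (log2 fold change 0.68, SE 0.09, limma adjusted p = 0.0293). Zfpm1, the cofactor of GATA factors known as FOG1, had 899 and 1195 with Wt and 113 and 111 with K198R (log2 fold change -3.20, SE 0.15, limma adjusted p = 0.000527). In Pax5-/- cells the same gene had 4132 and 4036 with Wt and 4815 and 5740 with K198R. Bmpr1a, a BMP receptor, Tifa, an adaptor of NF-kB signalling, and Klhl6, which takes part in B cell receptor signalling, each had a K198R-only region on the start site. In Sirt7-/- cells they were lower with K198R than with Wt by 1.90, 1.37 and 0.83 on the log2 scale. Bmpr1a had 353 and 333 with Wt, 86.4 and 95.5 with K198R and 121.5 and 91.4 with EV there, so that its Wt libraries were the high ones. The calls of Mt1 and Trp53i11 in Sirt7-/- cells were lost whichever K198R or Wt library was left out, as were most of the 9 lower calls.

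Lists of genes with known roles were read against the 10.0% of all genes that were nearest to a K198R-only region. Of 22 B lineage factors 11 were, among them Bach2, Foxo1, Ikzf1, Tcf3, Zeb2 and Pax5 itself, which held 2 K198R-only regions in its introns. Of 19 genes that Pax5 activates 3 were (Bach2, Bcar3 and Foxo1), and all 19 were nearest to some region of any class. Of 19 genes that Pax5 represses 6 were (Ccr2, Csf1, Itga6, Lif, Notch1 and Zap70), of 24 T and NK cell genes 2, of 22 myeloid and progenitor genes 6, of 18 cell cycle genes 8, of 12 metabolic genes 9 and of 17 receptors 5. Nearest to some region of any class were 21 B lineage factors, 11 repressed genes and 8 T and NK cell genes. So were 14 myeloid and progenitor genes, 14 cell cycle genes, 10 metabolic genes and 13 receptors. The lists held genes that the study names for K198R binding or for Pax5, so that their shares are not independent of these data.

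Few of these list genes passed the call. Of the 3 activated genes, Bcar3 was called higher against Wt. Foxo1, a factor of recombinase expression in pro-B cells, with a region on its start site (6.04 and 5.15), had 2094 and 2042 normalized counts with EV, 3420 and 3329 with Wt, 2943 and 2709 with K198Q and 4914 and 4901 with K198R. Its groups did not overlap, and its log2 fold change of 0.54 ± 0.08 (SE) against Wt at a limma adjusted p = 0.0189 was under the fold threshold. In Sirt7-/- cells its K198R libraries lay below the Wt libraries, with 4496 and 4034 for Wt and 3134 and 2905 for K198R (log2 fold change -0.50, SE 0.12, limma adjusted p = 0.1645), and did not pass the test. Of the 6 repressed genes, none was called against Wt and Ccr2, a chemokine receptor of monocytes, was called lower against EV, 576 and 656 with EV, 224 and 234 with Wt and 265 and 136 with K198R (log2 fold change -1.69, SE 0.30, limma adjusted p = 0.0117). Of the 11 B lineage factors, Pax5 itself was called higher against Wt and EV, where its transcript includes the vector's, and Klf2, a factor of lymphocyte quiescence, was called lower against K198Q and EV. Klf2 had 314 and 397 with EV, 121 and 162 with Wt, 175.5 and 284 with K198Q and 76.7 and 69.0 with K198R (log2 fold change -2.26 against EV, SE 0.28, limma adjusted p = 0.00309).

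Of the 6 myeloid and progenitor genes, Cebpb, a myeloid factor with a K198R-only region on its start site at chr2:167688601-167689056 (4.42 and 5.15), had 379 and 555 normalized counts with EV, 234 and 263 with Wt and 120 and 85.3 with K198R. It was called lower against EV (log2 fold change -2.17, SE 0.26, limma adjusted p = 0.00275), and against Wt it fell by 1.29 on the log2 scale (limma adjusted p = 0.0486), under the fold threshold. None of the 8 cell cycle or 9 metabolic genes was called in any of the 4 comparisons. Cdk4 had 12684 and 13831 with Wt and 12324 and 14804 with K198R, so that its libraries overlapped. Among the receptors, Cxcr4 had 3721 and 3611 with Wt and 4721 and 3809 with K198R (log2 fold change 0.21, limma adjusted p = 0.664).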

How the data were processed

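ChIP–seq peak lists (6 libraries) and RNA-seq tables (16 libraries in 2 tables) were analysed. Members, gene lists and motifs were chosen with earlier results of these data known. The authors aligned ChIP reads with Bowtie2 to mm10 and called peaks per replicate with MACS2 over input. The deposited lists give fold enrichment (a ratio) and −log10 q, but no read counts per peak, so the precision per peak is unknown. By the study's reporting summary the ChIP and input libraries had nearly equal numbers of clean reads. The authors quantified RNA with Salmon and normalized counts with DESeq2 per table; the deposited values are a normalized signal, from which whole reads were not recovered, summing to between 27814214 and 30520853 per library after normalization, so that sequencing depth is unknown, and values were tested only within a table. A further table, of sorted cells, and the input libraries were not used. Of 56338 peaks, 31 on scaffolds were left out.

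Genes that reached 10 normalized counts in 2 or more libraries of a table were fitted on log2(value + 1) over all 8 libraries with limma 3.58.1 (R 4.3.3) and Benjamini-Hochberg adjustment. Fold changes are on that scale and understate changes of low genes; a fold against libraries near 0 depends on the pseudocount and is no bound. Calls needed an adjusted p under 0.05 and, in Pax5-/- cells, a log2 fold change of at least 1.5. Named were the 10 strongest regions by the lower enrichment, regions nearest to genes the study names, up to 8 called genes per direction by fold change, and list examples; further values were picked from these after they were seen. Some genes that counts and lists include are not reported here by name. Windows, motifs and figures used Python 3.11.15, pandas 2.3.3, pysam 0.24.0 and matplotlib 3.10.9. Gene starts and places were from GENCODE vM21, and the genome sequence (GRCm38, the mm10 build) and promoter sequences from RefSeq; genes were joined to the RNA tables by Ensembl identifier. The fits were tested on simulated data. Alternatives were other filters, pseudocounts, distances, thresholds, peak rules, the replicate block and each replicate left out.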

Additional observations from a re-analysis of the deposited data

Results flagged for a closer look

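Of 23 named genes compared between K198R and Wt in both kinds of cell, 4 had libraries that did not overlap in either kind and moved in opposite directions; the difference itself was not tested. Of all 12506 genes tested in both tables, 6.79% did so, and the 23 had been named for libraries without overlap in at least 1 kind of cell, so that the count is a description. Phyh had log2 fold changes of -3.80 in Pax5-/- cells and 0.28 in Sirt7-/- cells, and Btbd6 had -2.75 and 0.30. Zfpm1 had 0.36 in Pax5-/- cells and -3.20 in Sirt7-/- cells, and Klhl6 had 0.066 and -0.83. The 2 kinds of cell also differed in the amount of Pax5 transcript, in their own Pax5 gene, in the table that normalized them and, as the study's methods give it, in the strain and the tissue of origin.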

How the results depend on the processing

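The regions kept their values with a q under 0.01 or with a stricter overlap between replicates. When any peak of Wt or K198Q removed a region, 1077 were left, with 0% holding a single-replicate peak by construction, 38.35% within 1 kb of a start site and a median lower enrichment of 4.556. Leaving out 1 list at a time gave between 1863 and 6851 regions, single-replicate shares of 11.11 to 59.8%, promoter shares of 38.89 to 45.71%, core shares of 7.664 to 8.38% and median lower enrichments of 4.645 to 5.154. The looser letters, added after the data were seen, were in 35.87% of windows.

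The calls among nearest genes, given as higher and lower with K198R, moved with most choices. Against Wt (13 and 14), 9 were lower with no filter on low values, 8 were higher within 5 kb, 35 and 38 passed the adjusted p alone, 4 and 6 were next to regions without any peak of another form, and 4 were higher among genes nearest to no other region. Leave-outs gave 2 to 9 and 0 to 29. Against K198Q (14 and 23), 14 were lower with no filter, and the counts were 7 and 14 within 5 kb, 53 and 67 by adjusted p alone and 6 and 9 without any peak of another form; 4 were higher among genes nearest to no other region. Leave-outs gave 3 to 14 and 1 to 44. Against EV (46 and 32), the counts were 25 and 19 within 5 kb, 134 and 108 by adjusted p alone, 21 and 13 without any peak of another form and 15 and 18 among genes nearest to no other region. Leave-outs gave 38 to 47 and 16 to 49. In Sirt7-/- cells (2 and 9), the counts were 0 and 2 with no filter, 1 and 3 with the fold threshold, 1 and 2 without any peak of another form and 1 and 5 among genes nearest to no other region. Leave-outs gave 0 to 1 higher and 1 lower. The lone sample of such a fit is assumed to vary like the other groups, and the causes were not tested.

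Replicates were made on separate days, but the sources do not say that equal numbers in different groups share a day, and each comparison has only 2 pairs; same-numbered deviations correlated by 0.16 to 0.43. A replicate block gave 15 and 18 calls against Wt, 21 and 33 against K198Q, 51 and 40 against EV and 21 and 39 in Sirt7-/- cells. These were 0.757% and 0.909%, 1.06% and 1.67%, 2.57% and 2.02% and 1.05% and 1.95% of the nearest genes tested, against 0.457% and 1.99%, 0.712% and 3.07%, 1.79% and 3.9% and 0.916% and 1.38% of all genes in the same fits. All 58 gene values that the naming rule chose kept their call under the block, and none of 406 reversed under any setting, while 146 lost the call.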
